A study of Mus musculus with 12 samples.

Results

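The genes described here are 27 genes of GABA and glycine signalling, taken by name from the 56748 genes of a mouse brain RNA-seq table. They were listed by function (receptor subunits, anchoring proteins, transporters and synthetic enzymes), and each name matched 1 row. Libraries were made from adult C57BL/6 mice, an inbred laboratory strain, in 3 arms of 4 mice, each with 2 females and 2 males. The PBS arm received phosphate-buffered saline. The LPS arm received lipopolysaccharide, the endotoxin of the outer membrane of Gram-negative bacteria, at 0.5 mg/kg into the abdominal cavity each day for 7 days. The LPS+DMA arm received the same LPS together with N,N-dimethylacetamide (DMA), an organic solvent, at a dose not given in the sources used here. All brains were taken on day 7, and the labels give each mouse as a separate animal. The title of the series names the question as whether DMA attenuates LPS-induced neuroinflammation.

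GABA and glycine are the main inhibitory transmitters of the central nervous system. GABA opens chloride channels built from subunits of the GABA-A receptor and acts more slowly through the GABA-B receptor, which couples to G proteins. Glycine opens a related chloride channel that is most used in the brainstem and spinal cord. Both transmitters are loaded into vesicles by the same carrier and are cleared by plasma membrane transporters, and the subunits in use differ greatly between brain regions.

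Values are FPKM, that is, fragments counted on a gene, divided by its length and by a scale for the library. Within an arm they are always given in the order female replicate 1, female replicate 2, male replicate 1 and male replicate 2. Depth, recovered from the steps of the FPKM values, was 27.5 to 41.4 Mreads (megareads) per library. The share of reads in ribosomal RNA genes was 0.0499% in LPS female replicate 2 and 3.60% to 10.9% in the other libraries, and the mitochondrial share from 4.51% to 5.70%. All 27 genes reached 0.5 FPKM in at least 2 libraries and were tested among 19571 genes. A comparison was called at an adjusted p under 0.05 in limma, fitted on log2(FPKM + 1) with arm and sex, with Benjamini-Hochberg adjustment over all genes tested.

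The libraries did not hold the same brain regions. A forebrain-hindbrain score, the mean log2 level of 10 cortex and hippocampus markers minus that of 10 cerebellar markers, was below 0 in 4 libraries: PBS female replicate 1 (-0.93), LPS female replicate 1 (-2.71) and both LPS males (-2.22 and -3.77). The other 8 libraries scored between 2.22 and 3.82. The label gives brain tissue for all of them. Summed FPKM of 10 cerebellar markers lay between 46.1 and 459 in PBS, 51.5 and 657 in LPS and 43.3 and 68.7 with LPS+DMA. The defining granule cell marker Cbln3 reached 90.3, 137, 16.3 and 97.7 FPKM in the 4 libraries with a score below 0 and at most 1.00 in the others. Summed brainstem and spinal cord markers lay between 0.551 and 14.5 in PBS, 1.77 and 73.7 in LPS and 0.869 and 3.73 with LPS+DMA, and the hindbrain gene Hoxb5 was listed at 0 in 7 libraries. Cortex and hippocampus markers summed to 485 to 871 in PBS, 26.4 to 892 in LPS and 743 to 1221 with LPS+DMA. Choroid plexus markers summed to 4.99 to 340, 189 to 1810 and 4.97 to 430 in the same order, and red cell markers to 71.1 to 116, 243 to 946 and 29.0 to 296. The general neuronal markers differed less, at 705 to 804, 675 to 750 and 731 to 998. In bulk tissue, fewer cells of a type and less RNA per cell cannot be told apart.

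**Figure D1:**
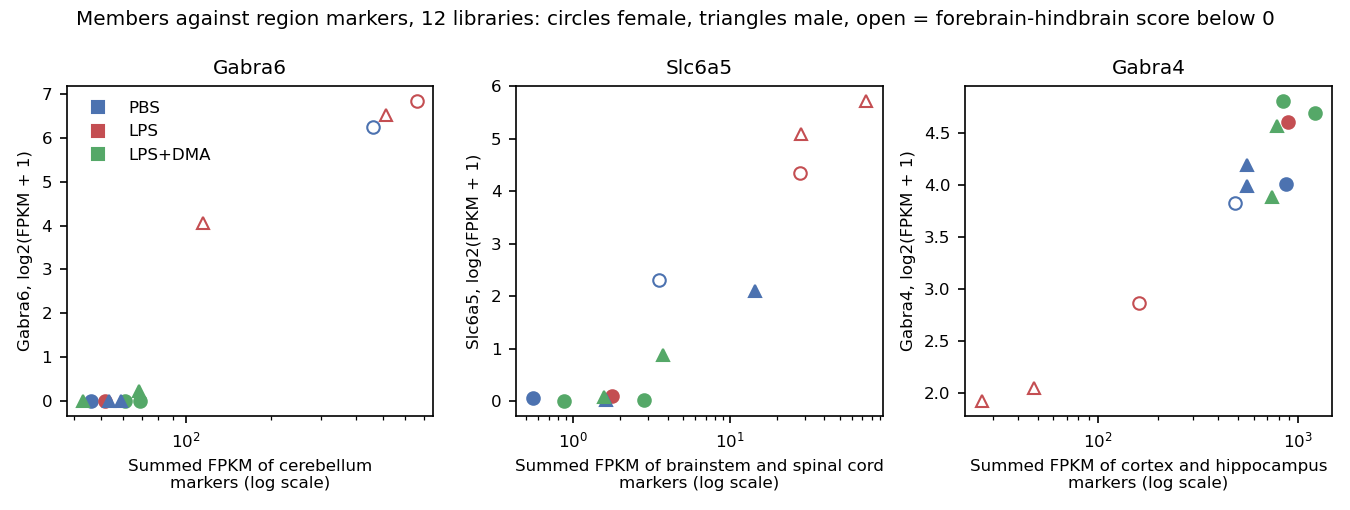
Level of Gabra6, Slc6a5 and Gabra4 as log2(FPKM + 1) (vertical axes) against the summed FPKM of cerebellar, brainstem and spinal cord, and cortex and hippocampus markers (horizontal axes, log scale). Each point is 1 of 12 libraries, coloured by arm, with circles for females, triangles for males and open symbols for the 4 libraries with a forebrain-hindbrain score below 0, which hold the 4 highest values of Gabra6 and the 4 lowest sums of cortex and hippocampus markers.

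The alpha subunits form part of the GABA binding site and set the receptor's kinetics and location. Gabra6, the alpha subunit of cerebellar granule neurons, showed the widest range of the 27 genes. It stood at 74.6, 0, 0 and 0 FPKM in PBS, at 114, 0, 15.6 and 90.5 in LPS, and at 0, 0, 0 and 0.170 in LPS+DMA. The 4 high libraries are the 4 with a forebrain-hindbrain score below 0, and the arms overlapped at 0. In 7 libraries no read was assigned to it, which allows a level of up to 0.0321 to 0.0438 FPKM (3 reads, counting error only). Among the summed FPKM of the 5 alpha genes listed here, Gabra6 made up 57.4% in the high PBS library and, in the order of the replicates, 72.4%, 25.0% and 71.3% in the 3 high LPS libraries.

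Slc6a5, the plasma membrane carrier that returns glycine to glycinergic terminals, stood at 3.93, 0.0376, 0.00739 and 3.27 FPKM in PBS, at 19.2, 0.0623, 51.7 and 32.8 in LPS, and at 0, 0.0101, 0.0593 and 0.832 in LPS+DMA. LPS female replicate 2 lay with the low libraries, at 14 reads, while the other 3 LPS libraries held 4701, 14184 and 9258 reads. Glra1, the alpha subunit of the adult glycine receptor, stood at 5.47, 0.348, 3.17 and 9.44 FPKM in PBS, at 13.0, 1.93, 34.2 and 24.3 in LPS, and at 0.243, 0.768, 0.620 and 6.56 in LPS+DMA. The same 3 LPS libraries were the highest of the 12 for both genes.

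As examples, promoter sequences are shown for Gabra6 and Slc6a5, at or near 0 in many libraries, and for Nlgn2 and Gabbr1, high in all. They come from RefSeq (mouse build GRCm38.p6), run 5′ to 3′ on the gene's strand from 250 bases before to 50 after the start, and capitals mark matches to the motifs given next. Gabra6 lies at chr11:42321023-42321322 (minus strand) and Slc6a5 at chr7:49910049-49910348 (plus strand, the first of its listed starts). Nlgn2 lies at chr11:69837735-69838034 (minus strand) and Gabbr1 at chr17:37045716-37046015 (plus strand).
Gabra6: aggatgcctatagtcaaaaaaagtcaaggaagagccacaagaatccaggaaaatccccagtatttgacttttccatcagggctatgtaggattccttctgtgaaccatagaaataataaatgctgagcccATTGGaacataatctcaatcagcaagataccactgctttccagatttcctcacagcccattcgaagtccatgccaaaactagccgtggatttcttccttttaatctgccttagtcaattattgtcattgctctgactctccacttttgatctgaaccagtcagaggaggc
Slc6a5: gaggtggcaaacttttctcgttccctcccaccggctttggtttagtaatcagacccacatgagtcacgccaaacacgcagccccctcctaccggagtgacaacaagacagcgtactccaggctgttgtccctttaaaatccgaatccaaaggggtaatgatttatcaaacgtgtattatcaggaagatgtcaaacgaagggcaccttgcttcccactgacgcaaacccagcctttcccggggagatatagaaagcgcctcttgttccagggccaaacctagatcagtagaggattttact
Nlgn2: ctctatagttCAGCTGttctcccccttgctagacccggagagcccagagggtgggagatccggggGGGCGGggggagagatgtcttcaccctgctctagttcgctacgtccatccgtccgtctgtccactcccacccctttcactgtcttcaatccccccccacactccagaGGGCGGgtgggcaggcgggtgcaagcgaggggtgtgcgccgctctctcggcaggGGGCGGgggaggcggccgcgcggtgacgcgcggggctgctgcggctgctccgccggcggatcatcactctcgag
Gabbr1: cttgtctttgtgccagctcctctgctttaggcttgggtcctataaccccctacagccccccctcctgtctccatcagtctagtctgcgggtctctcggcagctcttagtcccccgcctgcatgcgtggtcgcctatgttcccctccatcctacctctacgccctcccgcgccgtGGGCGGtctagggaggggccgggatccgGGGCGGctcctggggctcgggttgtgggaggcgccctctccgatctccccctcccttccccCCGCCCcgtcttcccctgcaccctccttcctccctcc

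The motifs searched on both strands were the TATA box (TATAAA), the CCAAT box (CCAAT), the GC box (GGGCGG), the cyclic AMP response element (TGACGTCA), the E-boxes CAGCTG and CACGTG, and the left part of the RE1 element (TTCAGCACC). The Gabra6 window holds 2 CpG dinucleotides and a reverse-strand CCAAT box at -120. The Slc6a5 window holds 12 CpG and no match, which says only that these letters are not in it. The Nlgn2 window holds 26 CpG, GC boxes at -185, -78 and -24, and the E-box CAGCTG at -240. The Gabbr1 window holds 18 CpG and GC boxes at -76, -48 and, on the reverse strand, 13 bases after the start. The median over all promoters was 7 CpG. Both listed windows of Gabra3, a gene at 19.3 to 49.2 FPKM over the libraries, hold 0 CpG. A link between base composition and level was not tested. Of the 27 genes, 25 matched the RefSeq table, with 32 promoters. At least 1 promoter held a GC box in 16 genes, a CCAAT box in 11, a TATA box in 4 and the E-box CAGCTG in 2. These counts are of genes, some with several promoters. The shares that follow are of single promoters, so the counts cannot be set against them. Of 32851 promoters, 35.7% held a GC box, 37.4% a CCAAT box, 13.6% a TATA box, 16.3% the E-box CAGCTG, 7.15% the E-box CACGTG, 1.79% the cyclic AMP element and 0.371% the RE1 part. The last 3 motifs were in no matched promoter of the 27 genes.

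The other alpha genes were present in all libraries. Gabra3 was the highest of them, at 25.9, 41.1, 41.0 and 39.7 FPKM in PBS, 22.4, 39.9, 26.6 and 19.3 in LPS and 49.2, 36.5, 38.6 and 33.3 with LPS+DMA. Gabra4, an alpha subunit of extrasynaptic receptors in the forebrain, stood at 13.1, 15.1, 17.2 and 14.9 in PBS, at 6.26, 23.3, 2.79 and 3.13 in LPS, and at 24.9, 26.96, 22.6 and 13.8 in LPS+DMA. Its 3 low LPS libraries are those with a forebrain-hindbrain score below 0, and LPS female replicate 2 exceeded all PBS libraries. Gabra5, best known from the hippocampus, ranged from 9.77 to 32.7 FPKM in PBS, 10.4 to 18.4 in LPS and 15.0 to 24.3 with LPS+DMA. Gabra2 ranged from 6.51 to 13.7, 3.68 to 8.43 and 4.34 to 11.8. In LPS+DMA, where Gabra6 was nearly absent, Gabra3 made up 43.1% ± 2.55 (SD, n = 4) of the summed FPKM of the 5 alpha genes, Gabra4 24.0% ± 5.09, Gabra5 22.2% ± 4.72 and Gabra2 10.6% ± 4.40.

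The beta, gamma and minor subunits overlapped between arms, with 1 exception. Gabrb2 ranged from 18.8 to 29.5 FPKM in PBS, 14.2 to 22.7 in LPS and 10.2 to 38.3 with LPS+DMA, and Gabrb1 from 9.63 to 13.6, 6.14 to 13.4 and 4.95 to 18.4. Gabrg3, a gamma subunit, was the exception, at 1.96, 2.77, 3.87 and 2.81 in PBS, 0.971, 2.81, 1.71 and 0.993 in LPS and 4.15, 5.80, 3.19 and 3.42 with LPS+DMA. Every LPS+DMA library lay above every LPS library for it. Gabrg1 ranged from 3.59 to 8.39, 4.21 to 5.53 and 2.65 to 7.49. Gabrd, the delta subunit of receptors that respond to ambient GABA, ranged from 10.02 to 25.4, 4.18 to 22.7 and 10.4 to 24.6. The epsilon gene Gabre (0.172 to 2.16, 0.339 to 1.05 and 0.0495 to 0.922), the theta gene Gabrq (0.810 to 6.99, 1.90 to 3.50 and 0.197 to 2.30) and the rho gene Gabrr2 (0.206 to 0.708, 0.152 to 0.698 and 0.348 to 1.51) were the lowest GABA-A genes among the 27.

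Both GABA-B subunits were abundant, which the receptor needs because it works as a heterodimer. Gabbr1 had the highest mean of the 27 genes, at the 98.1 percentile of tested genes. It stood at 81.7, 76.8, 92.7 and 85.9 FPKM in PBS, 69.4, 80.0, 63.4 and 67.0 in LPS and 92.7, 101.4, 86.9 and 106.2 with LPS+DMA, with no overlap between the LPS and LPS+DMA libraries. Gabbr2 ranged from 36.1 to 42.4, 21.8 to 43.6 and 36.1 to 51.3. The ratio of Gabbr1 to Gabbr2 was 2.10 ± 0.141 (SD, n = 4) in PBS, 2.36 ± 0.444 in LPS and 2.29 ± 0.380 with LPS+DMA.

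Of the remaining glycine receptor genes, Glrb, the beta subunit that binds the scaffold gephyrin, ranged from 45.1 to 59.5 FPKM in PBS, 46.2 to 70.1 in LPS and 31.6 to 58.7 with LPS+DMA. Glra2 ranged from 4.10 to 9.70, 4.26 to 7.56 and 3.50 to 8.59, and Glra3 from 1.67 to 4.12, 1.67 to 2.73 and 0.916 to 3.66. Gphn, which encodes gephyrin, was among the steadiest genes, at 17.1 to 18.9, 17.0 to 19.9 and 14.7 to 20.2. Nlgn2, the adhesion protein neuroligin 2 of inhibitory synapses, stood at 36.4, 42.0, 38.0 and 35.7 FPKM in PBS, 29.6, 35.8, 26.9 and 29.9 in LPS and 41.0, 46.4, 64.1 and 55.8 with LPS+DMA. The LPS+DMA and LPS libraries did not overlap, and both LPS+DMA males lay above every other library.

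Among transporters, Slc6a11, an astrocytic GABA transporter, stood at 54.7, 43.2, 85.6 and 86.3 FPKM in PBS, at 48.4, 50.1, 84.5 and 72.8 in LPS, and at 29.5, 29.7, 28.8 and 58.9 in LPS+DMA. The 4 PBS and LPS males lay above the 4 PBS and LPS females, a difference that was not tested, and 3 of 4 LPS+DMA libraries lay below all others. Slc6a9, the glial glycine transporter, ranged from 9.21 to 16.6, 8.86 to 26.6 and 2.27 to 15.3. Slc32a1, the vesicular carrier of both transmitters, ranged from 36.6 to 45.5, 35.8 to 56.0 and 33.3 to 65.6. Gad1, which makes most GABA in the cell body, stood at 56.0, 96.9, 54.7 and 46.2 in PBS, 47.3, 50.9, 33.5 and 41.9 in LPS and 68.5, 76.4, 58.3 and 51.8 with LPS+DMA. The LPS+DMA libraries all lay above the LPS libraries. Gad2, the synthetic enzyme enriched at terminals, ranged from 42.6 to 63.8, 37.7 to 47.7 and 46.1 to 99.7, and the ratio of Gad1 to Gad2 was 1.32 ± 0.618 (SD, n = 4), 1.02 ± 0.225 and 1.07 ± 0.303.

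**Figure D2:**
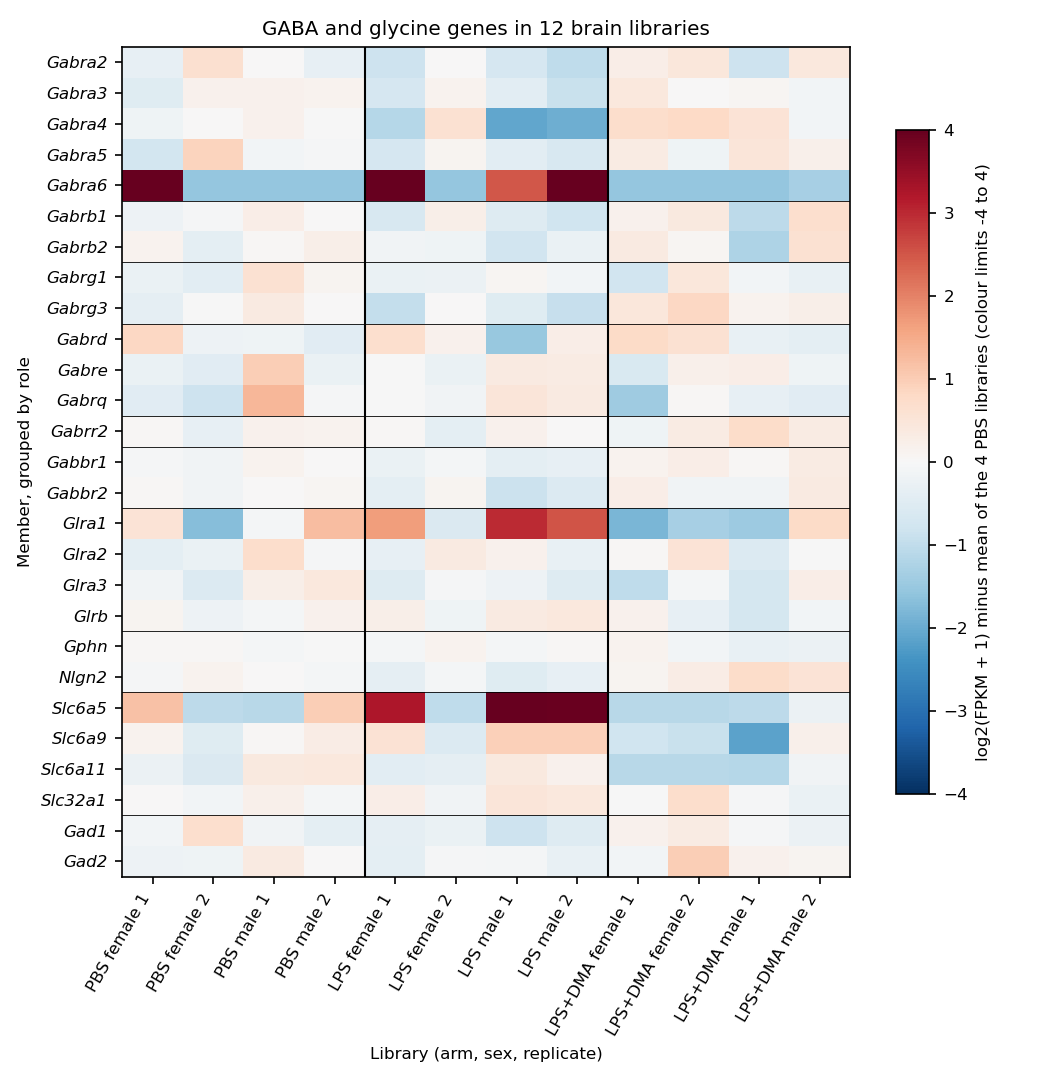
Level of each of the 27 genes (rows, grouped by role) in each of the 12 libraries (columns, by arm), as log2(FPKM + 1) minus the mean of the 4 PBS libraries, with the colour scale ending at -4 and 4. Gabra6, Slc6a5 and Glra1 vary most, and LPS female replicate 2 lies below 0 for all 3 while the other 3 LPS libraries lie above.

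LPS+DMA was compared with LPS to ask what differed when DMA was given with LPS. Of the 27 genes, 8 were called: Gabra4, Gabrg3, Gabbr1, Nlgn2 and Gad1 were higher in LPS+DMA, and Slc6a5, Glra1 and Slc6a11 were lower. The other 19 did not pass. That is 29.6% of the genes, beside 9.67% of all genes tested (5.79% higher and 3.88% lower). The 27 genes were chosen with earlier results of these data known, so the shares only describe them. At an unadjusted p under 0.05 the genes numbered 15, or 55.6%, beside 28.4% of all genes. Groups did not overlap for 4 genes, all higher in LPS+DMA, which is 14.8% of them beside 6.26% of all genes, and for 0 genes lower, beside 5.98% of all genes. The median log2 change was 0.29 over the 27 genes and 0.01 over all genes.

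By transmitter, of 18 GABA genes, 4 rose and 1 fell (27.8% called), with a median log2 change of 0.47. Of 6 glycine genes, 2 fell and 0 rose (33.3% called), with a median of -0.92. Beside these, 5.79% of all genes rose and 3.88% fell. The 2 glycine genes that fell, Slc6a5 and Glra1, were highest in the 3 LPS libraries with a forebrain-hindbrain score below 0. The 3 genes that serve both transmitters held 1 that rose (Nlgn2).

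Slc6a5 had the largest called change, a log2 change of -3.56 (SE 0.96, adjusted p = 0.0414). Glra1 fell by 2.60 on the log2 scale (SE 0.65, adjusted p = 0.0337). Gabra4 rose by 1.63 (SE 0.41, adjusted p = 0.0349) and Gabrg3 by 1.00 (SE 0.24, adjusted p = 0.0304). Slc6a11 changed by -0.81 (SE 0.18, adjusted p = 0.0263) and Nlgn2 by 0.73 (SE 0.14, adjusted p = 0.0213). Gad1 rose by 0.55 (SE 0.16, adjusted p = 0.0491) and Gabbr1 by 0.46 (SE 0.11, adjusted p = 0.0278). Gabra6, despite a log2 difference of -4.29, did not pass (adjusted p = 0.110), and Slc6a9 was just outside at -1.39 (adjusted p = 0.0633).

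The number of calls depended on which libraries were in the fit, most of all on those of LPS. With 1 LPS+DMA library left out, 2 to 4 of the 27 genes and 1071 to 1506 of all genes were called. With 1 PBS library left out, 4 to 9 of the 27 and 1052 to 1721 of all genes were. When LPS female replicate 1 or either LPS male was left out, 0 of the 27 genes and 7 to 22 of all genes were called. LPS female replicate 2 has the low ribosomal share and a score above 0. Without it, 11 of the 27 were called, beside 3465 of the 19571 genes tested. With the forebrain-hindbrain score added to the model, 0 of the 27 genes were called by limma. Of the 27, 4 had an unadjusted p under 0.05, beside 1517 of the 19571 genes tested. The log2 changes became -0.45 for Slc6a5, -0.79 for Glra1, 0.39 for Gabra4 and 0.38 for Gabrg3. Slc6a11 moved less, to -0.76, as did Nlgn2 at 0.54, Gad1 at 0.37 and Gabbr1 at 0.34. Without the 4 libraries with a score below 0, which leaves LPS female replicate 2 as the only LPS library, the log2 differences were 0.03 for Gabra4, -0.19 for Slc6a5, -1.19 for Glra1, 0.50 for Gabrg3, 0.40 for Nlgn2, 0.23 for Gabbr1, 0.61 for Gad1 and -0.84 for Slc6a11. With a single LPS library the spread comes from the other arms, so these values are given as differences without a test. The differences of Slc6a11 and Gad1 were as large without the 4 libraries as with them, but the libraries kept still differed in region. Their 8 striatal markers summed to 94.1, 106 and 80.3 in PBS, 290 in LPS and 406, 954, 672 and 48.8 with LPS+DMA. In LPS+DMA against LPS with all libraries, 9 of 10 cortex and hippocampus markers rose, and 3 of 10 brainstem markers and 5 of 8 choroid plexus markers fell. Of 6 markers each, 3 of microglia and 1 of oligodendrocytes fell, and of astrocytes 2 fell and 1 rose. Of 6 neuronal markers 2 rose and 1 fell, of 10 interneuron markers 2 rose and 1 fell, and of 8 striatal markers 1 rose. No marker of the cerebellum, thalamus and midbrain, hypothalamus, olfactory bulb or red cells was called. At an unadjusted p under 0.05 in limma, 9 of 10 cerebellar markers (median log2 change -2.42) and all 5 red cell markers (median -1.51) were lower. So was 1 of 8 thalamus and midbrain markers, and 1 of 5 olfactory bulb markers was higher, beside 28.4% of all genes in either direction. The mean log2 level of the astrocyte markers was 5.58, 5.39, 5.30 and 5.51 in LPS, and 4.91, 5.03, 4.73 and 5.36 with LPS+DMA. LPS+DMA male replicate 2, the highest of that arm on these markers, is also its highest for the astrocytic Slc6a11. The same library differed in region from the rest of its arm. Summed thalamus and midbrain markers were 22.5, 23.5, 21.8 and 74.4 with LPS+DMA, and 56.5 to 61.9 in LPS. Its striatal sum was the lowest of the arm. The part of these cell types and regions in the results was not tested.

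**Figure D3:**
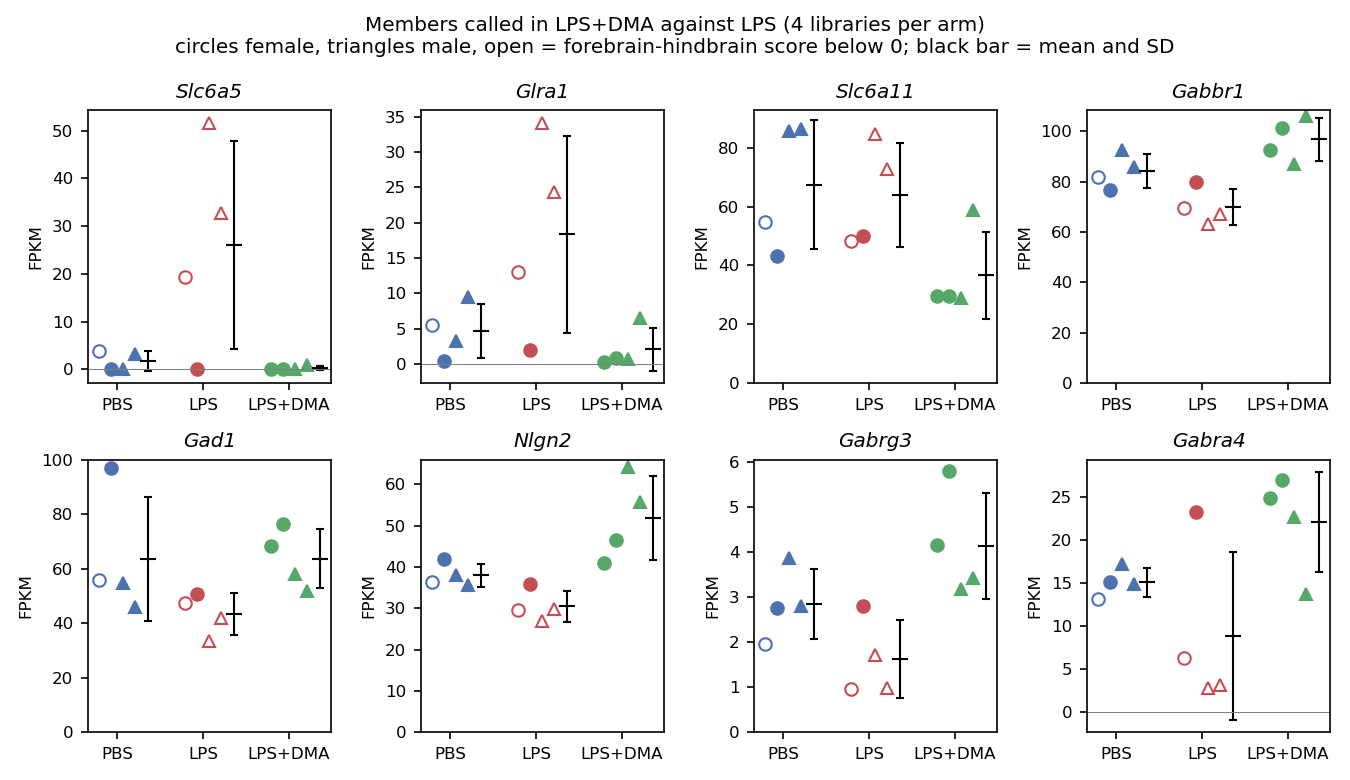
FPKM of the 8 genes called in LPS+DMA against LPS (vertical axes), by arm, with 1 symbol per library (circles female, triangles male, open where the forebrain-hindbrain score is below 0) and the mean with its SD over 4 libraries as a black bar. LPS female replicate 2, the filled red circle, lies nearest to the LPS+DMA libraries of the LPS arm for Slc6a5, Glra1, Gabbr1, Gad1, Nlgn2, Gabrg3 and Gabra4.

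LPS was compared with PBS to ask what LPS alone changed. None of the 27 genes was called by limma, nor by voom on the recovered reads, beside 0.0102% of all genes in limma, and 7 had an unadjusted p under 0.05 (25.9%, beside 11.0% of all genes), 2 of them higher and 5 lower. The groups did not separate for any of the 27 genes, beside 6.89% of all genes. The log2 difference was -0.50 for Gad1 (SE 0.16, adjusted p = 0.319), 2.69 for Slc6a5 (SE 0.96, adjusted p = 0.347), -1.14 for Gabra4 (SE 0.41, adjusted p = 0.349), 1.65 for Glra1 (SE 0.65, adjusted p = 0.392) and -0.27 for Gabbr1 (SE 0.11, adjusted p = 0.402). The median was -0.13 over the 27 genes and -0.01 over all genes. All 10 brainstem markers had positive differences in this comparison and all 10 cortex and hippocampus markers negative ones. Without LPS female replicate 2, 2 of the 27 genes were called by limma, beside 672 of the 19571 genes tested. The 2 were Slc6a5 at 3.87 (adjusted p = 0.00683) and Gabra4 at -1.67 (adjusted p = 0.00427). Without the 4 libraries with a score below 0, the difference was -0.18 for Slc6a5 and 0.35 for Gabra4, which turns the direction of both.

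LPS+DMA was compared with PBS to ask whether the treated brains differed from controls. None of the 27 genes was called by limma, nor by voom on the recovered reads, beside 0.0102% of all genes in limma, 2 had an unadjusted p under 0.05 (7.41%, beside 11.4%), and the groups separated for none, beside 6.64% of all genes. Slc6a11 had the smallest p, with a log2 difference of -0.87 (SE 0.18, adjusted p = 0.295) and, without the 4 libraries, -0.84. Nlgn2 followed at 0.42 (SE 0.14, adjusted p = 0.370) and 0.43 without those libraries. Slc6a9 stood at -0.91 (SE 0.43, adjusted p = 0.450), Gabbr1 at 0.20 (SE 0.11, adjusted p = 0.496) and Gabrr2 at 0.30 (SE 0.16, adjusted p = 0.503). Regions differed in this comparison too. All 8 thalamus and midbrain markers had negative differences (median -1.03) and all 8 striatal markers positive ones (median 1.93), with none called. Without the 4 libraries, summed thalamus and midbrain markers were 30.5, 101 and 103 in PBS and 22.5, 23.5, 21.8 and 74.4 with LPS+DMA. The part of region in the values of Slc6a11 and Nlgn2 was not tested. The 3 comparisons share arms, so their values are not independent of each other.

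**Figure D4:**
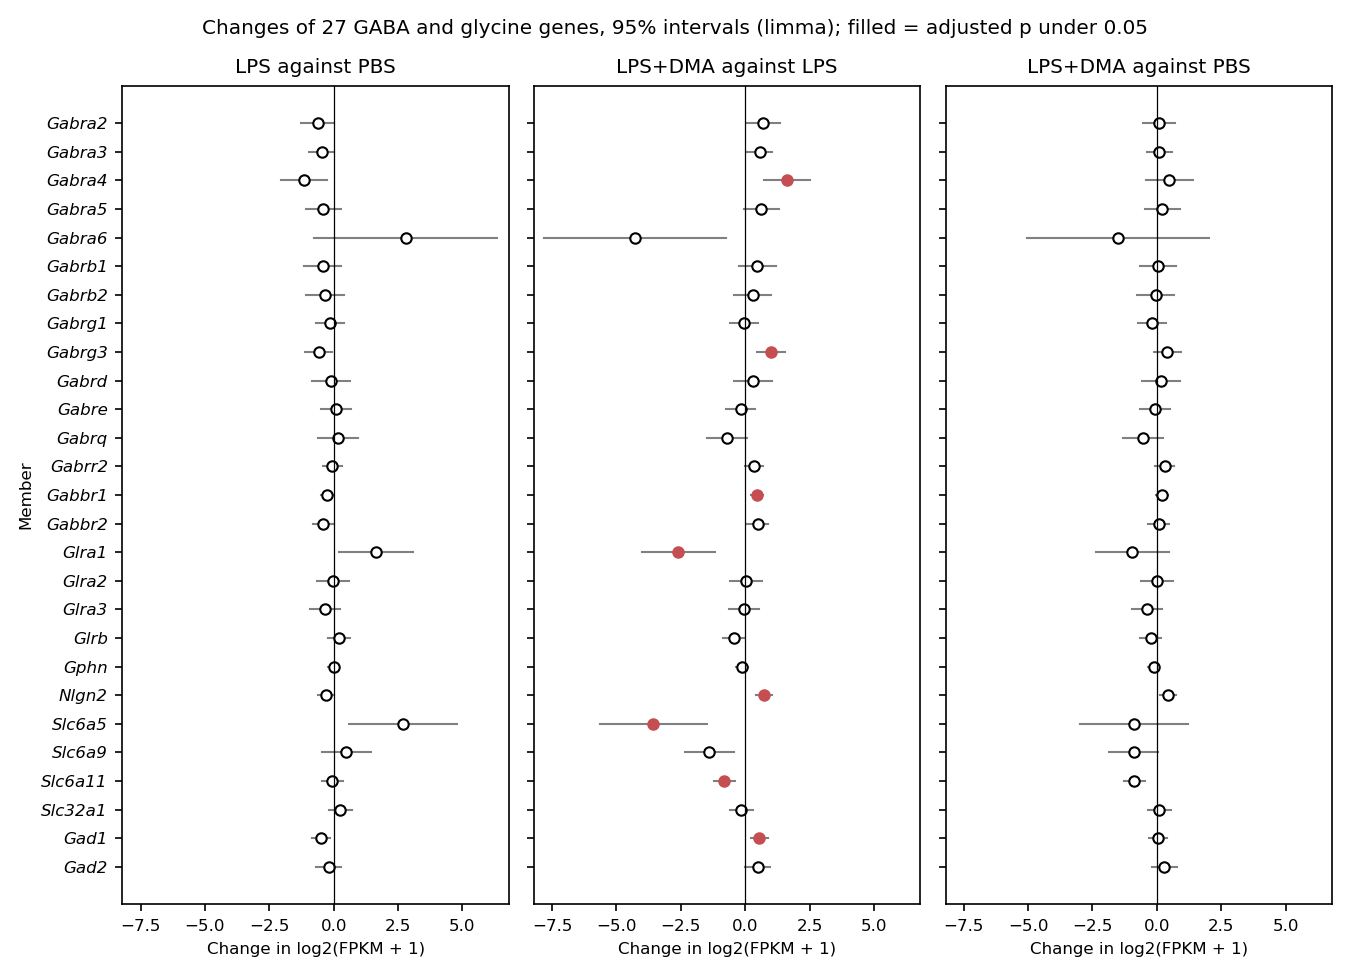
Difference in log2(FPKM + 1) of the 27 genes (rows) in each of the 3 comparisons (panels), with 95% intervals from limma as bars and filled points for an adjusted p under 0.05. The 8 filled points are all in LPS+DMA against LPS.

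Females and males were compared for their change, with 2 mice of each sex per arm. No gene of the 27 differed between the sexes at the adjusted threshold in limma, beside 0% of all genes in both comparisons. Leaving out LPS female replicate 1 raised the count of all genes to 17 in LPS against PBS, with 1 of the 27 among them. Leaving out LPS+DMA male replicate 2 raised it to 786 in LPS+DMA against LPS, with 0 of the 27 among them. With all libraries, 1 of the 27 had an unadjusted p under 0.05 in LPS against PBS, beside 2.51% of all genes. It was Gabra4, with log2 differences of -0.18 in females and -2.11 in males, and 1 of the 2 LPS females but both LPS males had a forebrain-hindbrain score below 0. For LPS+DMA against LPS, 2 did, beside 5.15% of all genes: Nlgn2 (0.41 in females and 1.05 in males) and Slc32a1 (0.30 and -0.61). The adjusted p was 1 for Gabra4 and 0.853 for the other pair.

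In the deposited coordinates (build GRCm39), several of the genes lie side by side. Gabrg1 (chr5:70908390-70999960), Gabra2 (chr5:71114940-71253192), Gabra4 (chr5:71727092-71815651) and Gabrb1 (chr5:71815456-72306380) form a cluster, and the starts of Gabra4 and Gabrb1 overlap on opposite strands. Their log2 changes in LPS+DMA against LPS were -0.05, 0.70, 1.63 and 0.47, so neighbours had unequal values, and of the 4 Gabra4 alone was called. Gabrg3 (chr7:56366213-57036936) and Gabra5 (chr7:57057420-57159807) are neighbours at 1.00 and 0.62, with Gabrg3 called. Gabra6 (chr11:42197264-42211899) and Gabrb2 (chr11:42310584-42519855) are neighbours at -4.29 and 0.29, neither called. Of the 27 genes, 15 overlap another annotated gene, 13 of them one on the opposite strand and 4 a protein-coding one (Gabra4, Gabra5, Gabrb1 and Slc6a9). The protocols describe both strand-specific and unstranded preparation without saying which was used, so the values of these genes may hold reads of the partner.

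Genes known to assemble or act together were compared across the 8 libraries with a score above 0 (3 PBS, 1 LPS and 4 LPS+DMA), because the libraries form separate clusters. Over 11 pairs, with exact two-sided permutation tests of log2 values, 5 passed an adjusted p of 0.05 by Pearson's r and 0 by Spearman's rho. The libraries were permuted over arms and sexes together, so a difference between arms, sexes or regions can by itself give a small p. Nlgn2, for example, lay at 41.0 to 64.1 FPKM with LPS+DMA and 35.7 to 42.0 in PBS. Gabre and Gabrq had r = 0.90 (permutation p = 0.00352, adjusted p = 0.0329) and rho = 0.71 (adjusted p = 0.153), with r = 0.83 without the 2 libraries farthest from the median. Gabra4 and Gabrd had r = 0.82 (permutation p = 0.0120, adjusted p = 0.0329) and rho = 0.88 (adjusted p = 0.0797), with r = 0.72 without the 2 farthest. Gphn and Nlgn2 ran opposite, with r = -0.83 (permutation p = 0.0118, adjusted p = 0.0329) and rho = -0.69 (adjusted p = 0.153), and r = -0.81 without the 2 farthest. Slc6a5 with Glra1 (r = 0.82, 0.05 without the 2 farthest) and Slc32a1 with Gad2 (r = 0.91, -0.28 without) rest on those libraries. No pair passed once the 2 farthest libraries were left out.

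Beyond the 27 genes, a list of 45 other genes of the pathway (chloride carriers, receptor auxiliary proteins, scaffolds, GABA-B effectors and metabolic enzymes) held 41 that were tested. The list was chosen with earlier results of these data known, so its shares only describe it. In LPS+DMA against LPS, 8 rose and 2 fell, or 24.4%, beside 9.67% of all genes (5.79% higher and 3.88% lower). The median log2 change of the list was 0.20, beside 0.01 over all genes. The auxiliary protein genes of the GABA-A receptor Shisa7 and Lhfpl4 rose by 1.79 (adjusted p = 0.0214) and 0.62 (adjusted p = 0.0259). Kcnj6, a potassium channel opened by GABA-B receptors, rose by 0.96 (adjusted p = 0.0298), and Kctd16, a GABA-B auxiliary subunit, by 1.51 (adjusted p = 0.0310). Gcsh, of the glycine cleavage system, fell by 0.59 (adjusted p = 0.0244), and Slc12a2, a carrier that brings chloride into cells, fell by 0.79 (adjusted p = 0.0377). In LPS against PBS 0 of the 41 were called by limma and 10 had an unadjusted p under 0.05 (24.4%, beside 11.0% of all genes). In LPS+DMA against PBS 0 were called and 6 had an unadjusted p under 0.05 (14.6%, beside 11.4%). With the forebrain-hindbrain score added to the model, 0 of the 41 were called in LPS+DMA against LPS.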

How the data were processed

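Brain RNA of 12 mice was sequenced, and the authors deposited 1 table of FPKM values for 56748 genes and 12 libraries. The build is GRCm39, and edgeR 4.0.16, DESeq2 1.42.0, featureCounts 2.0.6, STAR, GATK, HISAT2 2.2.1 and fastp are listed without roles, per the submitters' processing notes. Gene names and coordinates are from the deposited table. Promoters are from RefSeq GRCm38.p6 and were joined by symbol.

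FPKM times gene length fell on whole multiples of 1 step (100% of values up to 1000 reads, tolerance 0.1 reads), which gave the read totals. Among 66 pairs of libraries, chi-square per degree of freedom was at least 27.3, so none looked like a repeat deposit. Genes with at least 0.5 FPKM in at least 2 libraries (19571) were tested on log2(FPKM + 1), a scale that understates changes of low genes, with limma 3.58.1 in R 4.3.3, a variance trend, robust moderation and a sex term. The fit was tested on simulated data. Alternatives changed the pseudocount, filter, scaling, samples and covariates.

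The 27 genes, the pathway list and the marker lists were chosen with earlier results of these data known. All 27 genes are named, with full statistics for those called, or the 5 with the smallest p where fewer were. Of the 8 called genes of the pathway list with the smallest p, 6 are described, and the others are not reported here.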

Additional observations from a re-analysis of the deposited data

Results flagged for a closer look

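Each of the 27 genes was checked in each arm for a library far from the other 3 (Dixon's test at the 95% level, 81 checks), and 9 values of 8 genes stood apart. Chance flags about 1 in 20 such sets where values are normally distributed, which was not checked. Where 3 values are 0, as for Gabra6 in PBS, any other value is flagged. In PBS female replicate 1, Gabra6 (74.6 FPKM) and Gabrd (25.4 FPKM) were far above the other PBS libraries and Gabra3 (25.9 FPKM) far below them. In PBS male replicate 1, Gabre was far above the rest at 2.16 FPKM. In LPS female replicate 2, Gabra4 was far above the other LPS libraries at 23.3 FPKM. In LPS+DMA male replicate 2, Slc6a11 (58.9 FPKM), Glra1 (6.56 FPKM) and Slc6a5 (0.832 FPKM) were far above the other LPS+DMA libraries. Gabra6 was flagged in the same library at 0.170 FPKM, from 11 reads, beside 0 in the other 3.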

How the results depend on the processing

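In LPS+DMA against LPS, where 8 of the 27 genes, 10 of the pathway list and 1892 of all genes were called, the counts were 0, 1 and 83 with no filter, and 0, 0 and 5 with only the 2 arms compared. They were 0, 0 and 0 with the forebrain-hindbrain, choroid plexus or brainstem score as a covariate and without the 3 libraries with a cerebellar signal, and 0, 0 and 5 without the 4 libraries with a forebrain-hindbrain score below 0, an alternative added after seeing the data that leaves 1 LPS library, assumed to vary like the other arms. With no sex term, 3 of the 27 and 1513 of all genes were called. Leaving out 1 library gave 0 to 11 of the 27, 0 to 16 of the list and 7 to 3465 genes. In LPS against PBS (0, 0 and 2 called), the count of all genes was 1 with a pseudocount of 0.1, with no filter and with voom on recovered reads, 4 with the 2 arms alone and without the 4 libraries, and 0 with each covariate and without the cerebellar libraries. Leaving out 1 library gave 0 to 2 of the 27, 0 to 4 of the list and 0 to 672 genes. In LPS+DMA against PBS (0, 0 and 2), the count of all genes was 1 with TPM scaling and the forebrain-hindbrain covariate, and 0 with no filter, 2 arms, no sex term, the choroid covariate, voom and either set of libraries left out. Leaving out 1 library gave 0 to 6 genes. The sex difference in LPS against PBS was called for 0 to 1 of the 27.

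Directions reversed with the choroid plexus covariate for Gad1 (0.12 in LPS against PBS and -0.037 in LPS+DMA against LPS). In LPS against PBS they reversed with the brainstem covariate for Slc6a5 (-0.56), Gabra4 (0.17) and Glra1 (-0.083), and without the 4 libraries for Slc6a5 (-0.18), Gabra4 (0.35) and Kctd16 (0.10). Without the 2 farthest libraries, r reversed for Gad1 with Gad2 (-0.15), Gabbr1 with Gabbr2 (-0.30), Slc32a1 with Gad2 (-0.28) and Gabra3 with Gabrq (0.12), and the pairs passing went from 5 to 0. The cause was not tested.

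With a replicate block the calls were 9, 12 and 2040 in LPS+DMA against LPS, and 1 gene in each of the other comparisons. Whether the numbers pair the mice cannot be told from the values. Of 6 correlations of same-numbered deviations 2 were over 0.1, the highest 0.45 between PBS and LPS females. In both of these groups, replicate 1 has a forebrain-hindbrain score below 0 and replicate 2 does not. TPM scaling moved the median change of all genes by -0.12 in LPS+DMA against LPS. There, Gabbr1, Nlgn2 and Gad1 were no longer called and Glrb and Slc6a9 were. Depth limits Gabra6 and Slc6a5 in the libraries with few or no reads.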
